A study of Mus musculus with 2 samples.

Results

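Cdkn1a and 7 genes read together with it, Mdm2, Ccng1, Phlda3, Bax, Btg2, Trp53inp1 and Ccnd1, were described in liver sections profiled by spatial transcriptomics (ST). The 8 genes were taken by symbol from the 32285 genes of the count tables, and all 8 were found once each. They had been selected by measured values of these same sections, above all by the difference between diets, so that difference is given below as a description without a test. The data came from 1 section of the liver of 1 NCD mouse, kept on a normal chow diet, and 1 section of the liver of 1 HFD mouse, kept on a high-fat diet. Both animals were male C57BL/6J mice bought at 5 weeks of age, which after 1 week of acclimation spent 14 weeks on their diet and then received distilled water by mouth for 8 weeks. The livers had been perfused, frozen and cut at 10 µm, and the 10x Visium assay counted transcripts as unique molecular identifiers (UMIs) in barcoded spots, each of which can cover several cells of different types.

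p53 is a transcription factor that accumulates after DNA damage and other stresses and binds DNA through a pair of short palindromic elements. Its targets stop the cell cycle, repair DNA, promote apoptosis or feed back on p53 itself. Cdkn1a encodes p21, which inhibits cyclin-dependent kinases (CDKs), and in hepatocytes it is known to respond to injury, to regeneration and to signals that do not pass through p53. Btg2 is an antiproliferative gene of the BTG and TOB family that also answers to growth factors as an early response gene. Ccnd1 encodes cyclin D1, which drives entry into the cell cycle and stands here as the counterpart of p21 rather than as a target of p53. Mdm2 encodes the ubiquitin ligase that degrades p53. Ccng1 encodes cyclin G1, which takes part in the same feedback. Bax encodes a pore-forming protein of the mitochondrial route to apoptosis, Phlda3 encodes a pleckstrin homology domain protein that restrains Akt, and Trp53inp1 encodes a stress protein that modulates p53 and autophagy.

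The NCD section held 29037988 UMIs over 3692 spots and the HFD section 72118803 UMIs over 3594 spots, with medians of 4187.5 and 18549 UMIs per spot. Levels are therefore given as UMIs per 1000000 UMIs of the section (CPM), and 95% intervals are exact and cover counting error only. With 1 section per diet no test between diets was possible, and diet, animal, section and slide cannot be told apart. The sections shared 3173 spot barcodes, which are printed positions and not cells. The labels call the material an immune cell and a hematopoietic stem cell, whereas Alb, the hepatocyte albumin gene, was at 56011 CPM in NCD and 57872 CPM in HFD, and the pan-leukocyte gene Ptprc was at 6.61 and 10.7 CPM. In the NCD section the spots off tissue were almost as deep as those over it, and a spot over tissue was the deeper of the pair in 51.6% of all such pairs, against 99.2% in HFD.

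The DNA just upstream of these genes is shown for the members whose upstream window holds the p53 half-site consensus, the 10-base element that p53 binds in pairs. The 250 bases before each annotated start were searched. The table used held upstream windows for 6 of the 8 genes. Trp53inp1 and Ccnd1 were not in it. The consensus reads the same on both strands, so 1 search covered both. It was found in 4 of the 6 genes and in 8.2% of all 27025 genes with a window. Matches are descriptions of letters and not shown binding sites. The sequences are from RefSeq on GRCm38.p6, written 5′ to 3′ on the strand of the gene, with the matches in capitals.
Cdkn1a, upstream start, chr17:29090729-29090978, + strand: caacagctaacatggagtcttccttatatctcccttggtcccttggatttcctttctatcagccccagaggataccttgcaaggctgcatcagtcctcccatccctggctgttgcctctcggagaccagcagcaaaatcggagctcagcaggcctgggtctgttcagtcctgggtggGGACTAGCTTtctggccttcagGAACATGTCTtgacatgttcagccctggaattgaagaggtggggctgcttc
Mdm2, chr10:117710759-117711008, − strand: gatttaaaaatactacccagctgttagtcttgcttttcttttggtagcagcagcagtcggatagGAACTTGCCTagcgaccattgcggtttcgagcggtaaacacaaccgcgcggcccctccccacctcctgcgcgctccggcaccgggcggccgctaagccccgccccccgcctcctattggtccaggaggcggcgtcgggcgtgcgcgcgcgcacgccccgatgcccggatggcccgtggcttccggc
Ccng1, chr11:40755287-40755536, − strand: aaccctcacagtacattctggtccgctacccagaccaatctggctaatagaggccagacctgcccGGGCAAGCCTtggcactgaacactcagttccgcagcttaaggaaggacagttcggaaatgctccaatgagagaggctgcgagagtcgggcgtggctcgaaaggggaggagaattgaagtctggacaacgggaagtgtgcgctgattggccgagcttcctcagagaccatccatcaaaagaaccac
Bax, chr7:45466899-45467148, − strand: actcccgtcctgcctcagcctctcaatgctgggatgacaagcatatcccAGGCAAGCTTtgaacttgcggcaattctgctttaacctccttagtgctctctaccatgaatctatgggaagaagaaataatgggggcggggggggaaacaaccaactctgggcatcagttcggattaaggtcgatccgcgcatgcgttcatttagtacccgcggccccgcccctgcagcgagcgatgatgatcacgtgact

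The Cdkn1a window held 2 matches, GGACTAGCTT beginning 73 bases and GAACATGTCT beginning 51 bases before the upstream start. The second match lay 2841 bases before the downstream start of Cdkn1a, whose own window held none. Only 85 of all 32851 windows, 0.259%, held 2 or more matches. Single matches began 186 bases before the start of Mdm2 (GAACTTGCCT), 185 bases before that of Ccng1 (GGGCAAGCCT) and 201 bases before that of Bax (AGGCAAGCTT). The windows of Btg2 and Phlda3 held none. On GRCm38 the GENCODE M21 annotation places Cdkn1a at chr17:29090976-29100727 (+ strand), Mdm2 at chr10:117688875-117710758 (− strand), Ccng1 at chr11:40748552-40755311 (− strand) and Bax at chr7:45461697-45466898 (− strand). Phlda3 lies at chr1:135766119-135769136 (+ strand), Btg2 at chr1:134075170-134079120 (− strand), Trp53inp1 at chr4:11156431-11174379 (+ strand) and Ccnd1 at chr7:144929931-144939925 (− strand). Ccnd1 overlaps the gene LTO1 of the + strand there, and whether strand was used in counting is not given in the sources used here.

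Compared with the NCD section, all 8 genes were at a higher level in the HFD section, as were 7570 of 10665 genes with at least 200 UMIs. Among the 8, the cell cycle genes differed most. Cdkn1a was at 2.17 CPM (1.67 to 2.78) in NCD, from 63 UMIs, and at 46.3 CPM (44.7 to 47.9) in HFD, from 3339 UMIs. That is a 21.3-fold higher level (16.6 to 27.8), a log2 ratio of 4.42 (4.06 to 4.80), and only 15 of 10665 genes with at least 200 UMIs had a higher ratio. Ccnd1 was at 7.09 CPM in NCD and 43.9 CPM in HFD, a log2 ratio of 2.63 (2.43 to 2.84). Btg2 was at 4.99 CPM in NCD and 20.7 CPM in HFD, a log2 ratio of 2.05 (1.81 to 2.31). Of these 3 genes Cdkn1a and Btg2 restrain the cycle and Ccnd1 drives it.

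The feedback genes of p53 differed less. Mdm2 was at 12.9 CPM in NCD and 18.7 CPM in HFD, a log2 ratio of 0.54 (0.37 to 0.71), the lowest of the 8. Ccng1 was at 18.1 and 41.0 CPM, a log2 ratio of 1.18 (1.05 to 1.32). Of the genes tied to cell death and stress, Trp53inp1 was at 28.4 and 78.2 CPM, a log2 ratio of 1.46 (1.36 to 1.57). Phlda3 was at 2.10 CPM in NCD, from 61 UMIs, and 7.27 CPM in HFD, a log2 ratio of 1.79 (1.41 to 2.20). Bax was at 25.6 and 44.0 CPM, a log2 ratio of 0.78 (0.66 to 0.90). No interval of the 8 ratios included 0. The share of all genes for which this held is not given here. Nothing is read from it, since this contrast chose the genes.

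**Figure D1:**
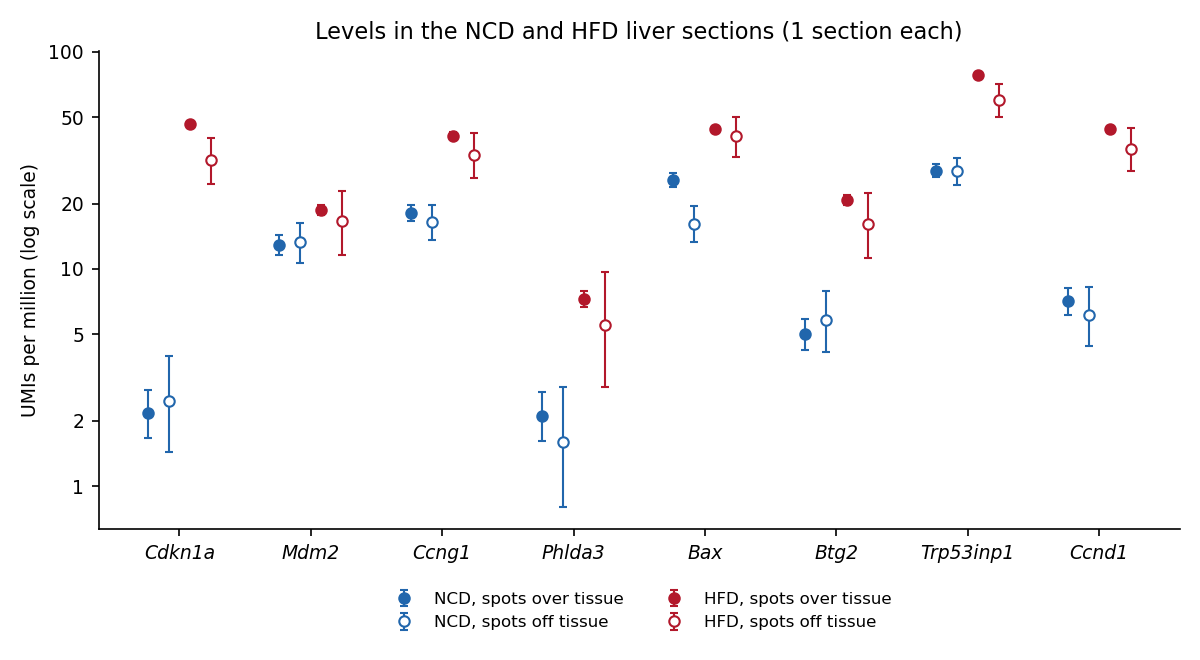
Level of each gene in CPM (log axis, UMIs per 1000000) in the NCD (blue) and HFD (red) section, for spots over tissue (filled) and spots off tissue (open), with exact 95% counting intervals and 1 section per diet. Every filled HFD point lies above its NCD point, most widely for Cdkn1a (2.17 and 46.3), and the open NCD points lie close to the filled ones except for Bax.

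Of the 8 genes, 6 were at least 2-fold higher in HFD (all but Mdm2 and Bax), where 9.3% of all genes tested were, and 0 were at least 2-fold lower, where 1.84% of all genes were. Since the genes were selected on this contrast, nothing is read from these counts. The median gene was itself 0.23 higher in HFD on the log2 scale. Relative to that median, 5 of the 8 genes stayed at least 2-fold higher and Ccng1 was at 0.95. On that scale 5.68% of all genes were at least 2-fold higher and 2.81% at least 2-fold lower.

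Marker genes of other cell types differed between the sections too, and their part in the ratios above was not tested. The summed level of 8 lipid-associated macrophage markers was 93.4 CPM in NCD and 365 CPM in HFD, with 7 of the 8 at least 2-fold higher. Smooth muscle markers were at 35.6 and 93.4 CPM (5 of 6 at least 2-fold higher), and stellate cell markers at 456 and 702 CPM (2 of 11). Resident Kupffer cell markers were at 285 and 230 CPM, with 4 of 7 at least 2-fold lower, and red blood cell markers at 6738 and 1292 CPM, with 4 of 5 at least 2-fold lower. Of the 8 hepatocyte markers, 0 differed 2-fold, with summed levels of 119793 and 137523 CPM. Fewer cells of a type and less RNA per cell cannot be told apart in such sums.

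RNA was also counted in the spots off tissue of each slide. In NCD the tissue level exceeded the level off tissue beyond counting error for Bax alone, with 25.6 CPM over tissue and 16.2 CPM off it. Cdkn1a in NCD was at 2.17 CPM over tissue and 2.47 CPM off it, a log2 ratio of −0.19 (−0.98 to 0.68). Alb in NCD was likewise at 56011 CPM over tissue and 56927 CPM off it. The comparison therefore cannot place Cdkn1a at a background level in NCD. In HFD, Cdkn1a was at 46.3 CPM over tissue and 31.7 CPM off it, a log2 ratio of 0.55 (0.20 to 0.91). Trp53inp1 in HFD was at 78.2 and 59.7 CPM, a log2 ratio of 0.39 (0.14 to 0.65), and for the other 6 genes in HFD the interval of this ratio included 0. The share of all genes that exceeded their level off tissue in either section is not given here, so nothing is read from these counts. After subtraction of the RNA expected from the spots off tissue, Cdkn1a was at a log2 ratio of 4.94 between diets and Bax at −0.02, the only member whose direction turned. In NCD this subtraction also takes away RNA of hepatocyte genes such as Alb.

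Genes of the same pathway outside the 8 were taken from lists of known p53 targets, regulators and family members. Of 33 other known p53 targets, 25 reached 200 UMIs, 7 of them were at least 2-fold higher in HFD and 0 at least 2-fold lower, where 9.3% and 1.84% of all genes tested were, with a median log2 ratio of 0.45 against 0.23 over all genes. The same shares of all genes are the background of each list that follows. The 200 UMIs were summed over both sections, so a gene with few UMIs in NCD could be tested through the deeper HFD section alone. Examples are Gdf15, with 75 UMIs in NCD and 4382 in HFD, and Thbs1, with 35 and 868. The highest of the other p53 targets tested was Gdf15, a stress-induced cytokine, at 2.58 CPM in NCD and 60.8 CPM in HFD, a log2 ratio of 4.56 (4.23 to 4.91). Thbs1, a matrix glycoprotein, was at 1.21 and 12.0 CPM (3.32 on the log2 scale). Both are also known to respond to stress and growth factor signals without p53. The lowest of those tested were Plk2, a polo-like kinase (−0.55, −0.78 to −0.31), Bbc3, the apoptosis gene Puma (−0.09), and Ercc5, a DNA repair nuclease (−0.03). The other genes of this list had too few UMIs to be tested and are named outside the naming rule. Eda2r, at 2 UMIs in NCD and 123 in HFD, was at 4.63 (2.75 to 7.69). Tnfrsf10b, at 3 and 75 UMIs, was at 3.33 (1.73 to 5.64). Psrc1 was at 2.53 (0.89 to 4.86), Pidd1 at 1.11 (0.35 to 1.95) and Ak1 at 1.04 (0.09 to 2.12). The intervals of Gtse1 (0.17) and Pmaip1 (0.42) included 0, and Zfp365 had 0 and 1 UMIs.

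The list of p53 and its regulators held 13 genes, of which 10 were tested, with a median log2 ratio of 0.24 and 1 gene at least 2-fold higher in HFD. Trp53 itself, named here outside the naming rule because it encodes p53, was at 8.54 CPM in NCD and 11.7 CPM in HFD, a log2 ratio of 0.45 (0.25 to 0.66). Trp53bp1, a DNA damage adaptor, was highest at 1.15, followed by the kinase gene Prkdc at 0.76 and the acetyltransferase gene Kat5 at 0.51. Mdm4, the partner of Mdm2, was lowest at −0.25 (−0.44 to −0.05), with Hipk2 at −0.22 and Atr at −0.03.

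Of the 6 other CDK inhibitor genes 4 were tested, and their log2 ratios were 0.21 for Cdkn2d, 0.01 for Cdkn1c, −0.05 for Cdkn2c and −0.25 (−0.48 to −0.02) for Cdkn1b, with a median of −0.02. Cdkn2a, a gene known in senescence, and its neighbour Cdkn2b are likewise named outside the rule and had too few UMIs to be tested. UMIs were counted per gene, so the products of Cdkn2a are not told apart. Cdkn2a was at 0.517 CPM in NCD, from 15 UMIs, and at 0.180 CPM in HFD, from 13 UMIs, a log2 ratio of −1.52 (−2.71 to −0.35). Cdkn2b was at 0.413 CPM in NCD, from 12 UMIs, and at 0.139 CPM in HFD, from 10 UMIs, a log2 ratio of −1.58 (−2.95 to −0.24). Of 8 other cyclin and CDK genes tested, 1 was at least 2-fold higher, the mitotic cyclin gene Ccnb2 at 1.98 (1.33 to 2.70), followed by Cdk1 at 0.81 and Ccnd3 at 0.41. Ccnb2 was tested only through HFD, with 21 UMIs in NCD and 206 in HFD. Cdk2 was lowest at −0.38, with Cdk6 at −0.10 and Ccng2 at 0.10. The cyclin genes with too few UMIs to be tested, 9 to 24 in NCD, are named outside the rule too. Ccnb1 was at 1.83 (0.97 to 2.83) and Ccne1 at 1.73 (0.72 to 2.91). Ccne2 was at 1.36 (0.65 to 2.14) and Ccna2 at 1.09 (0.45 to 1.79).

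Genes of S phase and mitosis had a median of 0.98, and 5 of 10 tested were at least 2-fold higher in HFD. These 5 (Birc5, Mcm2, Mcm3, Mcm4 and Rrm2) had only 28 to 76 UMIs in NCD. They were tested only through HFD, where they had 244 to 404 UMIs, so nothing is read from their count. The highest were Birc5, which encodes survivin, at 0.964 CPM in NCD and 3.44 CPM in HFD (1.83, 1.27 to 2.45), and the replication licensing genes Mcm2 (1.15) and Mcm3 (1.13). The lowest were Mcm7 (−0.15, 237 UMIs in NCD), Tyms (0.16, 189 UMIs in NCD) and Pcna (0.22, 823 UMIs in NCD). Of the 7 other BCL2 family genes tested, 0 differed 2-fold, with a median log2 ratio of 0.53. The survival gene Bcl2l1 was at 0.93, the effector gene Bak1 at 0.79, Bok at 0.55, Mcl1 at 0.37, Bid at 0.33 and Bad at 0.08. In the family of Btg2, Tob2 was at 1.24 and Tob1 at 0.06, while Btg1 was at −0.23 and Btg3 at −0.44 (−0.73 to −0.15).

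**Figure D2:**
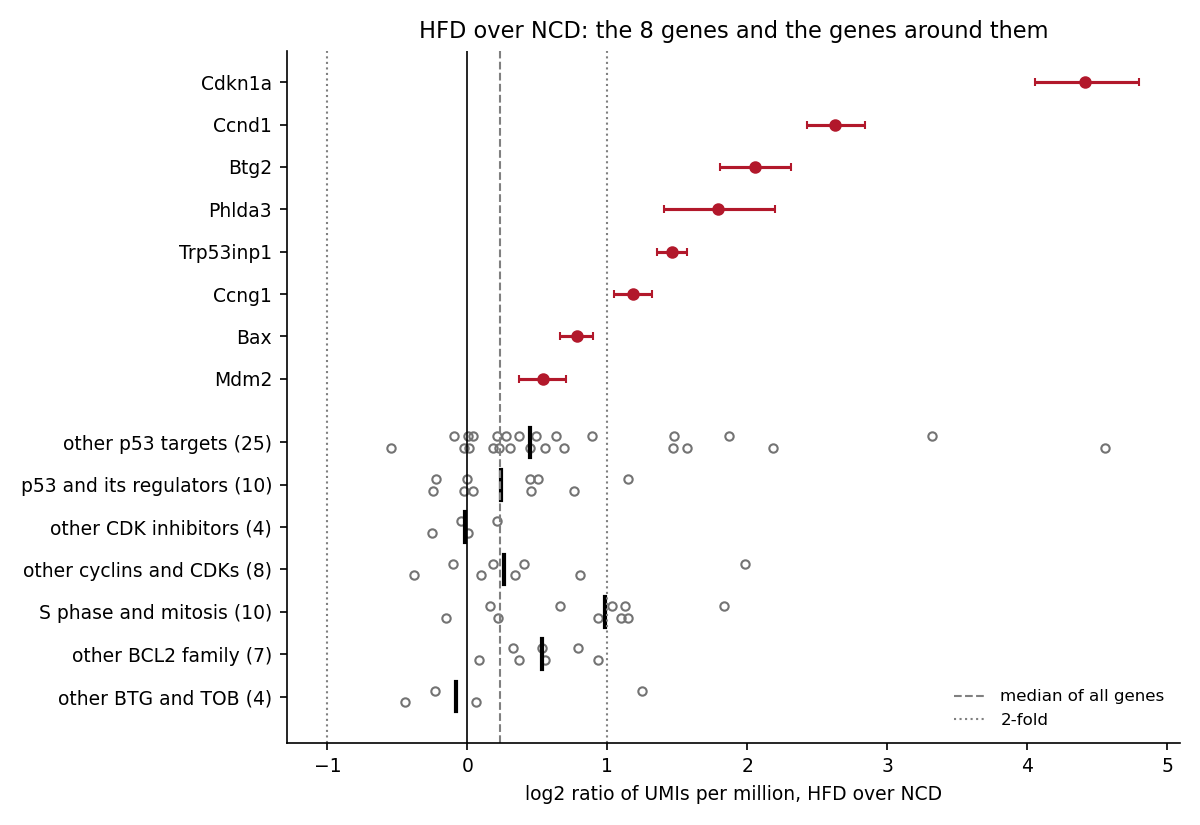
Log2 ratio of CPM, HFD over NCD, for the 8 genes (red, with 95% counting intervals) and for each tested gene of 7 lists around them (open points, number tested in parentheses, black bar at the list's median). Cdkn1a at 4.42 has its nearest neighbour in Gdf15 at 4.56 among the other p53 targets, whose median is 0.45 (all genes 0.23, dashed line). Of these 25 targets 7 are at least 2-fold higher, where 9.3% of all genes are.

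Over single spots, Cdkn1a was found widely in the HFD section and rarely in the NCD section. A Cdkn1a UMI was found in 1964 of 3594 HFD spots, 54.6% (53 to 56.3, exact binomial interval), with at most 10 UMIs in a spot. In NCD it was found in 63 of 3692 spots, 1.71% (1.31 to 2.18), with never more than 1 UMI in a spot. Since HFD spots were deeper, every spot was also drawn down to 3000 UMIs, which left 2107 NCD and 3538 HFD spots. The share was then 0.807% (0.471 to 1.29) in NCD and 13.2% (12.1 to 14.4) in HFD. Off tissue at the same depth it was 0.945% of 741 NCD spots and 11.3% (6.58 to 17.7) of 142 HFD spots. In both sections the interval over tissue overlapped that off tissue. In NCD, Alb was at 56011 CPM over tissue and 56927 CPM off it, so the spots off tissue are no empty background.

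The other genes were compared at the same depth of 3000 UMIs per spot. Ccnd1 was found in 2.71% (2.06 to 3.49) of NCD and 11.4% (10.3 to 12.5) of HFD spots, and Btg2 in 1.57% (1.08 to 2.19) and 5.82% (5.07 to 6.65). Trp53inp1 was found in 8.92% and 19.9% of spots, Ccng1 in 5.03% and 11.5%, Bax in 7.69% and 12.2%, and Phlda3 in 0.617% (0.329 to 1.05) and 2.06% (1.62 to 2.59). Mdm2 was found in 3.84% (3.06 to 4.76) of NCD and 5.57% (4.84 to 6.38) of HFD spots. At this depth the intervals of the diets did not overlap for any of the 8 genes, nor for 32% of all 10665 genes tested. With spots drawn down to 1000 UMIs they did not overlap for 5 genes, against 19.1% of all genes, and overlapped for Mdm2, Phlda3 and Bax. Nothing is read from these counts either, since the contrast is the one that chose the genes. In each section the share over tissue and the share off tissue had overlapping intervals for every gene but Bax in NCD, which was found in 4.05% (2.75 to 5.73) of NCD spots off tissue. How many of all genes had intervals apart in this comparison is not given here, so Bax is not called unusual.

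**Figure D3:**
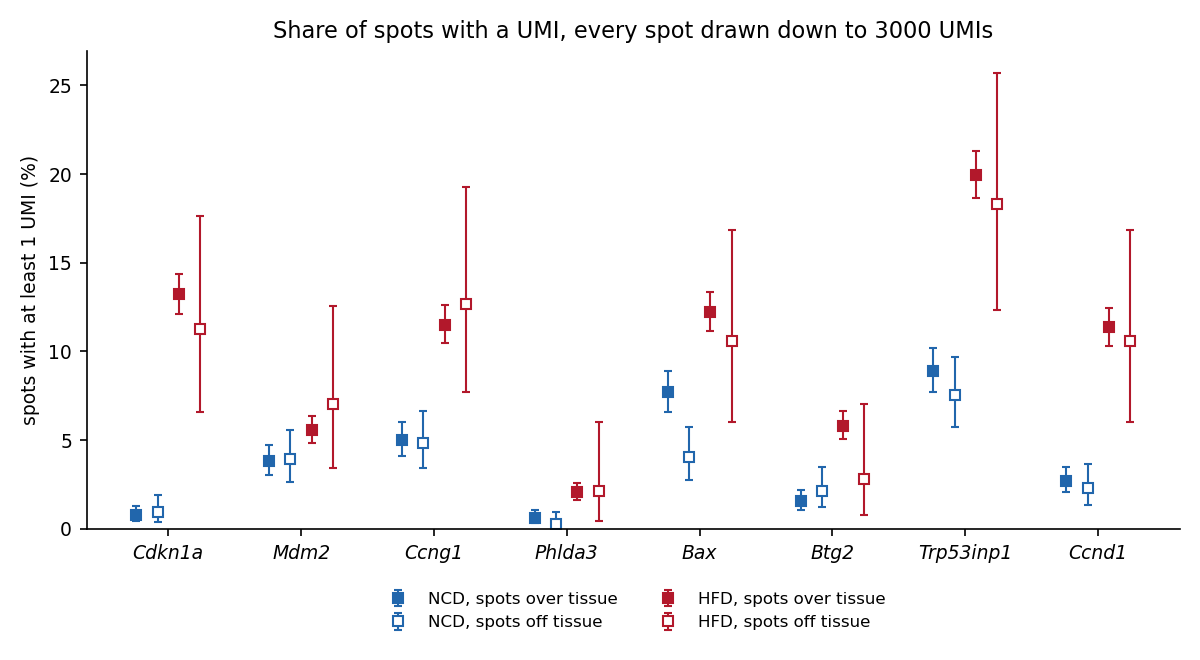
Share of spots with at least 1 UMI of each gene after every spot was drawn down to 3000 UMIs, over tissue (filled) and off tissue (open), in NCD (blue) and HFD (red), with exact 95% binomial intervals. Cdkn1a goes from 0.807% of NCD to 13.2% of HFD spots over tissue, and in HFD the open points have wide intervals because 142 spots off tissue reached that depth.

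The variation over spots beyond counting error was expressed as a coefficient of variation (CV), and in HFD it set 2 genes apart. Btg2 had a CV of 0.79, above 90.4% of 10054 genes, and Phlda3 had a CV of 0.73, above 87.5%. Ccnd1 had a CV of 0.48, Mdm2 of 0.40 and Cdkn1a of 0.35, near the median of 0.34 over all genes. Trp53inp1 (0.28), Ccng1 (0.27) and Bax (0.24) were below it. Cdkn1a, with the largest ratio between diets, was thus about as uneven over the HFD section as the median gene, above 52.1% of genes. For Cdkn1a in NCD, with 63 UMIs and never more than 1 in a spot, the estimate fell below 0 and gave no CV. With so few UMIs this says nothing on its variation.

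The counts of the members showed almost no correlation from spot to spot. Over the 3590 HFD spots with at least 1000 UMIs, the 28 pairwise correlations of depth-corrected residuals lay between −0.037 and 0.040 with a median of 0.0070. In 2852 NCD spots they lay between −0.027 and 0.039. These spots share 1 section, and in counts this sparse such values are no more than a description. Counting error lowers them, so they do not show that the levels themselves were unrelated. The genes most alike to Cdkn1a in HFD, among 5433 genes with at least 1000 UMIs, were Dlgap4 (r of 0.083), Ly6d (0.077), Psmc4 (0.070) and Eif4ebp1 (0.068). In NCD, with 63 UMIs of Cdkn1a, they were H2-Eb1 (0.087), Usf2 (0.079), Tmsb10 (0.071), Crip1 (0.068) and Zmpste24 (0.066).

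In HFD 5 members, all but Ccng1 and Mdm2, had a closer partner than Cdkn1a had. Phlda3 was most alike to Gsn, which encodes the actin-severing protein gelsolin (0.21), to Gpx3 (0.20) and to the matrix proteoglycan gene Bgn (0.19). Ccnd1 was most alike to the periportal cytochrome gene Cyp2f2 and to the secreted protein genes Ahsg and Alb (each 0.20). Btg2 was most alike to Igfbp1 (0.17) and to the metallothionein genes Mt1 (0.16) and Mt2 (0.14). Trp53inp1 was closest to Alb, C3 and Ahsg (each 0.14), Bax to Ly6d (0.12), Ctss (0.11) and Gpx4 (0.11), Ccng1 to Mmp12, Ubd and Cyp7b1 (0.065 to 0.075), and Mdm2 to Pomp (0.071) and Rpl17 (0.066). Each partner in HFD was picked as a highest value among 5433 genes. How high the highest of unrelated genes would be was not tested, which limits the low values most.

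Position in the liver lobule, the unit between portal tracts and a central vein, was read from each spot as the share of pericentral UMIs among its pericentral and periportal UMIs. Spots with at least 20 such UMIs were cut into 5 equal zones within each section, which left 1048 NCD and 19 HFD spots without a position. Ccnd1 had the steepest course in HFD, with 58.5, 52.9, 42.1, 33.1 and 24.2 CPM from the most periportal to the most pericentral zone. Each zone was lower than the one before it, and the pericentral over periportal log2 ratio was −1.27 (−1.46 to −1.1). Btg2 in HFD was at 24, 23.2, 21.6, 18.7 and 14.5 CPM along the same zones, a log2 ratio of −0.72 (−0.97 to −0.48). Trp53inp1 in HFD was at 91.4, 81.9, 79.7, 69.1 and 61.7 CPM, a log2 ratio of −0.57 (−0.69 to −0.45). These 3 genes were highest in the most periportal zone and lowest in the most pericentral one.

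Cdkn1a in HFD had no such course. It was at 45.2, 47.8, 48.2, 48.0 and 43.0 CPM from the periportal to the pericentral zone, a log2 ratio of −0.07 (−0.22 to 0.08). Phlda3 was level at 7.82, 7.83, 7.61 and 7.39 CPM over the first 4 zones and was at 5.38 CPM in the most pericentral one, a log2 ratio of −0.54 (−0.96 to −0.13). Ccng1 went slightly the other way at 0.17 (0.01 to 0.33), and the intervals of Mdm2 (0.20) and Bax (0.11) included 0. The median gene of the HFD section was at 0.11 on this scale.

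In HFD 2 of the 8 genes, Ccnd1 and Btg2, were at least 1.5-fold higher periportally, where 4.31% of all 10054 genes tested were, and 0 were at least 1.5-fold higher pericentrally, where 6.98% were. In NCD 1 gene, Btg2, was at least 1.5-fold higher periportally (3.54% of 7039 genes) and 0 pericentrally (12.3%). Btg2 in NCD rested on 33 and 24 UMIs in the outer zones, and its log2 ratio of −0.67 (−1.49 to 0.13) included 0, as did that of each of the other 7 genes in NCD. Trp53inp1 was at −0.003 (−0.35 to 0.35) in NCD, an interval that did not overlap that in HFD, as was found for 15.4% of 7023 genes. With spots drawn down to 1000 UMIs its ratios were −0.26 in NCD and −0.18 in HFD. For the other 7 genes the intervals of the diets overlapped, as for Ccnd1 with −0.53 (−1.30 to 0.23) in NCD, and a different course between diets was not detectable at this depth.

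**Figure D4:**
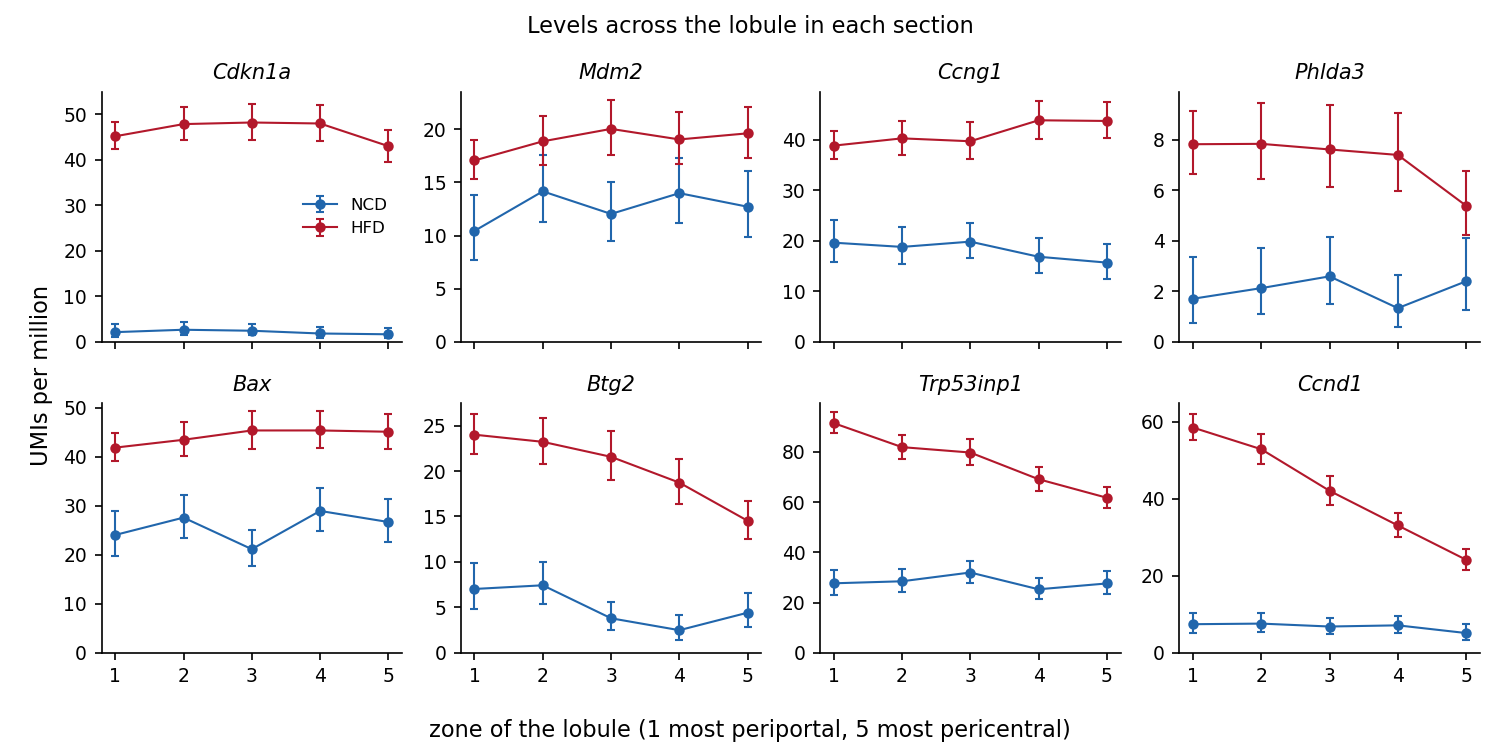
Level of each gene in CPM along 5 equal zones of spots from the most periportal (1) to the most pericentral (5), in NCD (blue) and HFD (red), with exact 95% counting intervals and a separate linear axis per gene. In HFD Ccnd1 declines from 58.5 to 24.2 while Cdkn1a stays between 43.0 and 48.2.

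The difference between diets, the contrast that chose the genes, is given by zone as a description only. The share of all genes that differed likewise in each zone is not given here. Zones were cut within each section, and the lists that place them differed too. Pericentral genes summed to 12100 CPM in NCD and 7016 CPM in HFD, and periportal genes to 5088 and 4233 CPM. The same zone number need not mark the same position in both sections. The log2 ratio of Cdkn1a, HFD over NCD, was 4.41, 4.17, 4.31, 4.71 and 4.70 from the periportal to the pericentral zone, and that of Ccnd1 was 2.97, 2.80, 2.62, 2.21 and 2.23. Mdm2, the least different gene, was between 0.41 and 0.74 in all 5. The zones differed in more than position. In HFD the most periportal zone had a median of 27552 UMIs per spot against 14457 to 18558 in the others, its bile duct cell markers summed to 491 CPM against 173 CPM in the most pericentral zone, and its smooth muscle markers to 139 against 36.1 CPM. Their part in the periportal levels was not tested.

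To see what moved with the members over spots, the tenth of HFD spots richest in each marker list was set against all other HFD spots. The largest ratios with markers of cells other than hepatocytes were those of Phlda3. In the 360 spots richest in bile duct cell markers Phlda3 was at 12.9 CPM against 6.42 CPM elsewhere, a log2 ratio of 1.01 (0.70 to 1.3), in a comparison where 5.11% of all genes were at least 1.5-fold higher. The Phlda3 ratio was 0.99 (0.65 to 1.31) in spots rich in smooth muscle markers, where 7.17% of genes were that much higher. It was 0.88 (0.56 to 1.18) for lipid-associated macrophage markers (7.97% of genes) and 0.83 (0.49 to 1.15) for stellate cell markers (7.06% of genes). These spots overlap, with 168 of 360 shared between the bile duct and macrophage lists, which both hold Spp1, and 117 of 360 between the stellate and smooth muscle lists, which both hold Des. In spots rich in hepatocyte markers Phlda3 was at −0.26 (−0.71 to 0.16).

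Several members had higher levels in spots rich in immediate early genes, and Btg2 alone was at least 1.5-fold higher there. In the 360 spots richest in those genes, such as Fos, Jun and Egr1, Btg2 was at 34.4 CPM against 19.1 CPM elsewhere, a log2 ratio of 0.85 (0.66 to 1.04), and Cdkn1a was at 56.4 against 45.1 CPM, a log2 ratio of 0.32 (0.18 to 0.47). Phlda3 was at 0.41 (0.03 to 0.77) there, Ccnd1 at 0.21 (0.05 to 0.36) and Trp53inp1 at 0.16 (0.04 to 0.28), and the intervals of the other 3 members included 0. At least 1.5-fold higher levels there were found for 3.01% of all genes, and the median gene was at 0.04. The value for Cdkn1a was the highest among all 26 lists, and its other ratios lay between −0.19 and 0.23. It was at 0.23 (0.07 to 0.38) with smooth muscle markers, where the median gene was at 0.02, and at 0.20 (0.05 to 0.35) with stellate cell markers, where the median gene was at 0.08. With periportal markers it was at −0.19 (−0.34 to −0.05), an interval that held the median gene at −0.12. In spots rich in the other p53 targets Cdkn1a was at 0.16 (0.00 to 0.31), an interval that held the median gene at 0.05, and Btg2 was at 0.47 (0.25 to 0.67).

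Ccnd1 was at 22.6 CPM in the spots richest in pericentral genes against 46.3 CPM elsewhere (−1.04, −1.27 to −0.81), and Btg2 at 12.7 against 21.7 CPM (−0.78, −1.09 to −0.47). In that comparison 3.44% of all genes were at least 1.5-fold lower. Ccnd1 was also lower in spots rich in lipid droplet genes, at 30.3 against 45.5 CPM (−0.59, −0.78 to −0.39), where 2.53% of genes were at least 1.5-fold lower. With lipid-associated macrophage markers Bax was at 0.40 (0.26 to 0.53), where the median gene was at 0.07. In spots rich in hepatocyte markers the median gene was at −0.16, Bax was at −0.36 (−0.54 to −0.19) and Ccng1 at −0.41 (−0.60 to −0.22). Mdm2 was at −0.39 (−0.67 to −0.12) there, an interval that held the median gene.

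**Figure D5:**
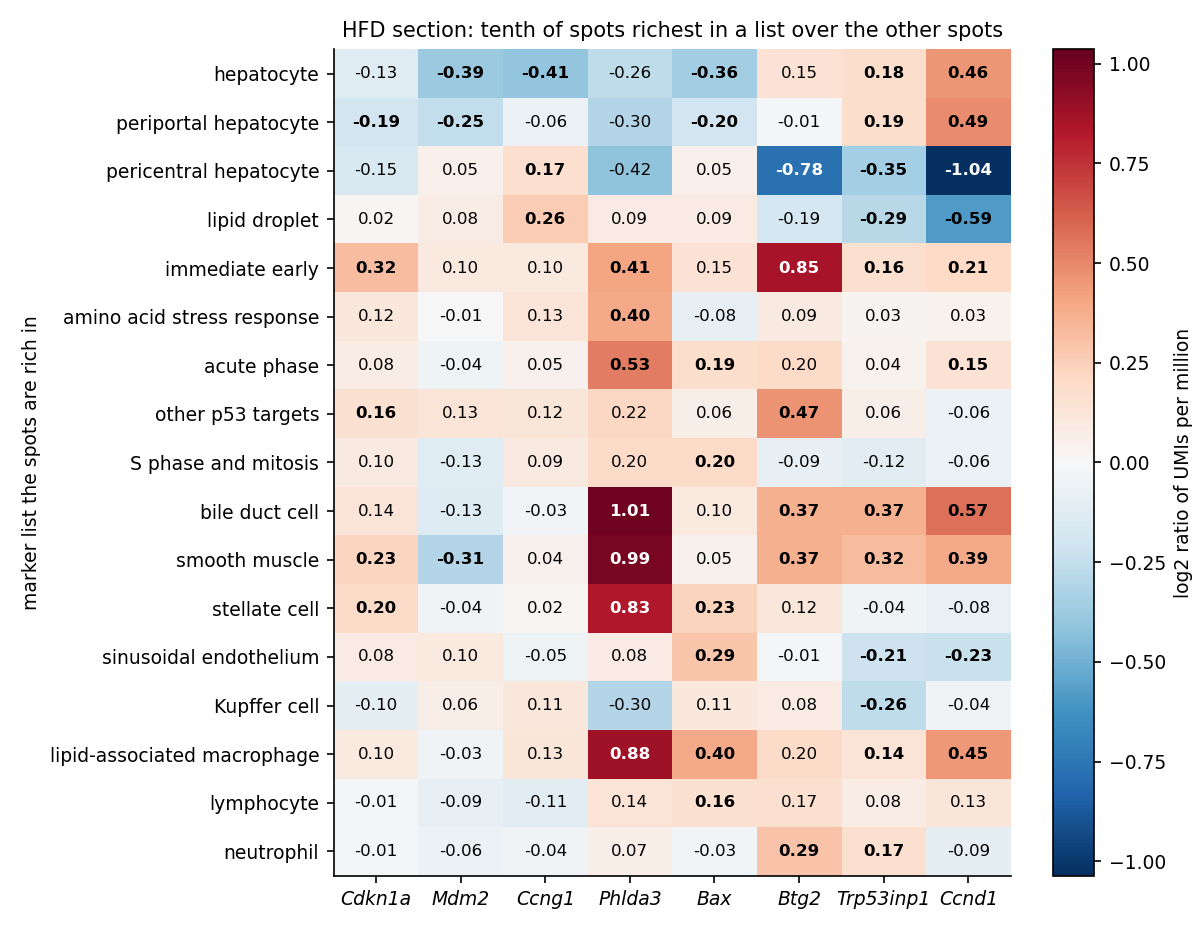
Log2 ratio of each gene's CPM in the tenth of HFD spots (360) richest in a marker list over all other HFD spots, with red for higher and blue for lower and bold figures where the 95% counting interval excludes 0. Phlda3 stands out at 1.01 with bile duct cell and 0.99 with smooth muscle markers, Btg2 at 0.85 with immediate early genes and Ccnd1 at −1.04 with pericentral genes.

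The tenth of HFD spots richest in Cdkn1a itself held 33.1% of its UMIs, at 150 CPM against 34.5 CPM elsewhere, which is how those spots were chosen. None of the other 7 genes was at least 1.5-fold higher there, where 0.597% of all genes were, and their log2 ratios ran from −0.01 for Ccnd1 to 0.24 (0.00 to 0.47) for Btg2 and 0.42 (0.03 to 0.78) for Phlda3.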

How the data were processed

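The deposited tables hold raw UMI counts per gene and spot, which the authors obtained with Space Ranger 1.3.1, the program that also decides which spots lie over tissue. Per the labels the mouse build was mm10. The annotation release is not given in the sources used here. Identifiers of 32235 of the 32285 genes were found in GENCODE M21. Raw and filtered tables differed by 0 UMIs over the spots of the filtered table.

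The 8 members and all gene lists were chosen with earlier results of these data known. Counts were summed per section, lobule zone or group of spots, divided by the total and multiplied by 1000000 (CPM), with exact Poisson, binomial and conditional binomial 95% intervals. A UMI is 1 captured molecule. With 1 section per diet a gene was called when past 2-fold between sections or 1.5-fold between groups of spots, among genes with at least 200 UMIs. Between sections these UMIs were summed over both, and between groups of spots they were those of the section. Lists were ranked over spots by summed Pearson residuals (theta 100), which also gave the correlations in spots with at least 1000 UMIs. The lobule lists were Glul, Cyp2e1, Cyp1a2, Oat, Slc1a2, Rhbg, Gulo, Rgn and Lect2 against Cyp2f2, Hal, Sds, Ass1, Asl, Gls2, Ctsc, Pigr and Hsd17b13. Named beside the members were, of each pathway list, the up to 3 tested genes with the highest and the up to 3 with the lowest ratio between diets, and for each member the genes with the highest correlation (5 for Cdkn1a, 3 for the others). A few genes that this rule names are not reported here.

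On simulated counts with known ratios, 95.1% of the intervals between diets, over 10665 genes, contained the ratio the counts were drawn with, and each of the 200 changed genes had the right direction. The alternatives varied depth, spot filters, scaling, free RNA, zone cuts and list cuts. Python 3.11.15, numpy 2.4.6, scipy 1.17.1 and pandas 2.3.3 were used.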

Additional observations from a re-analysis of the deposited data

Results flagged for a closer look

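UMIs of the 8 genes were also counted in spots off tissue, which enter the comparison between diets only where they are subtracted. In the NCD section these spots held 619 UMIs of the 8 genes together, 90.1 CPM (83.1 to 97.5), against 101 CPM (97.7 to 105) over tissue. In the HFD section they held 522 UMIs, 240 CPM (220 to 261), against 300 CPM (296 to 304) over tissue. Both lie above the level that 3 UMIs would give off tissue, 0.437 CPM in NCD and 1.38 CPM in HFD. Spots off tissue held 19.1% of all UMIs of the NCD slide and 2.93% of those of the HFD slide. The hepatocyte gene Alb was at 56927 CPM off tissue in NCD and 35782 CPM off tissue in HFD. How this RNA came to lie there was not tested.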

How the results depend on the processing

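No paired analysis was possible because each diet has 1 section. The log2 ratio of Cdkn1a, 4.42, became 2.79 as a mean of CPM per spot, where 1 UMI in an NCD spot of 55 UMIs makes up 71.8% of the NCD sum. It became 5.60 without the 1% of spots with most UMIs of the gene, which in NCD removes spots of 1 UMI, and 4.94 after subtraction of the spots off tissue. All 8 genes kept a ratio above 0 under every alternative between diets except Bax, at −0.024 after that subtraction. Of 72 recomputed ratios between diets, 42 were counted as the same, 29 as moved and 1 as reversed. All 8 recomputed shares of spots were counted as moved. The printed intervals therefore do not cover the choice of processing. The count of genes at least 2-fold higher was 5 or 6 throughout, while the share of all genes was 19.6% without the top 1% of spots and 19.7% after the subtraction. Mdm2 was at 0.13 with spots drawn down to 1000 UMIs, and its shares of spots then differed by 0.143 percentage points.

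With spots drawn down to 1000 UMIs, 2 genes were at least 1.5-fold higher pericentrally and 2 periportally in NCD (24.5% and 14.04% of all genes), and 1 pericentrally in HFD (22.5%). In NCD 2 genes were periportal with 3 zones in place of 5 (2.34% of all genes), 2 without Cyp2e1 and Cyp2f2 (3.40%) and 0 with at least 50 zonal UMIs (3.40%). In HFD 1 gene was periportal with 3 zones (3.43%). Ccnd1 in HFD was at −1.09 with 3 zones and −1.78 at 1000 UMIs. Of 430 ratios in list-rich spots recomputed with 20% or 5% of the spots, 404 stayed within the interval at 10% and 26 did not, among them Btg2 with immediate early genes (1.26 at 5%) and Phlda3 with smooth muscle markers (0.63 at 20%). Among genes with at least 1000 UMIs, of which 6.79% were at least 2-fold higher in HFD, 3 of 9 other p53 targets were, with 0 of 5 regulators, 0 of 4 cyclin or CDK genes and 0 of 1 S phase and mitosis gene. The NCD depth limits every statement on that section.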
